A study of Homo sapiens with 6 samples.

Results

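The cold-shock domain family around YB1 was taken as 6 genes of the 20030 in the expression table. These were YBX1, which encodes YB1, the other Y-box genes YBX2 and YBX3, and CARHSP1, LIN28A and LIN28B. They were chosen by name because their proteins carry a cold-shock domain, and with earlier results of these data known. Not every gene with such a domain is among them. The 6 genes were measured by mRNA sequencing of 6 libraries of 786-O, an established line derived from a human clear cell renal cell carcinoma. The 2 groups were 3 vector libraries, from cells given a lentivirus with a nonsense short hairpin RNA, and 3 shYB1 libraries, from cells given a lentivirus with a hairpin against YB1. Both groups were the same line at passages 16 to 18, and both were harvested after selection with puromycin. The series text speaks of several independent hairpins, while the labels name a single shYB1 group, and the hairpin carried by each library is not given in the sources used here. Nothing states that the replicates came from separate cultures, so the p-values below measure only the spread between these libraries.

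A cold-shock domain is a small barrel of beta strands that holds single-stranded RNA or DNA through a pair of short motifs, RNP1 and RNP2. YB1 coats cytoplasmic mRNA and sets how readily it is translated and how long it lasts, and in the nucleus it binds promoters that carry the Y-box, ATTGG or its complement CCAAT. YBX3, also called ZONAB or DBPA, is held at tight junctions by ZO-1 and acts on cell cycle genes when it enters the nucleus, a pathway well studied in kidney tubule cells. YBX2 packages stored mRNA in germ cells, CARHSP1 is a phosphoprotein that stabilises TNF mRNA, and LIN28A and LIN28B bind the precursor of the let-7 microRNA in embryonic and some tumor cells.

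In shYB1 cells, YBX1 mRNA was 54.7% lower than in vector cells, YBX3 mRNA was 27.9% lower and CARHSP1 mRNA was 11.8% lower. YBX2, LIN28A and LIN28B were at or near 0 FPKM in both groups. FPKM counts sequenced fragments relative to the length of the transcript and to the mapped fragments of the library, so levels of different genes can be compared on it. Fold changes below are on the scale of log2(FPKM + 0.1), shYB1 against vector, and a gene is called lower or higher when its limma p, after Benjamini-Hochberg adjustment over all 10439 genes averaging 1 FPKM or more, is under 0.05.

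YBX1 lies on the plus strand of chr1:42682427-42702349 (GRCh38, GENCODE 29), with 8 exons and an mRNA of 1514 bases. As the gene the hairpin was aimed at, it checks the labels. YBX1 mRNA measured 366.5, 372.8 and 377.9 FPKM in vector replicates 1, 2 and 3, and 166.7, 165.9 and 173.3 FPKM in shYB1 replicates 1, 2 and 3. Every shYB1 library lay far below every vector library, and the spread within each group was small. The means were 372 ± 5.70 and 169 ± 4.04 FPKM (SD, n = 3 each), a log2 fold change of -1.14 (SE 0.031, 95% interval -1.21 to -1.07, adjusted p = 1.53e-08, limma with Benjamini-Hochberg adjustment). The exact two-sided permutation test gave p = 0.1, the smallest that 3 libraries against 3 can give. YBX1 remained among the more abundant mRNAs after knockdown: 111 tested genes had a vector mean at or above its own, itself included, and 235 had such a shYB1 mean. Of the 1465 stretches of 50 bases in the YBX1 mRNA, 41.4% also occurred in 5 processed pseudogenes, none of which is a row of the table, so reads from these copies and from YBX1 may not be separable and the level of YBX1 is uncertain to that extent.

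YBX3 lies on the minus strand of chr12:10699089-10723312 and has 9 exons and an mRNA of 1708 bases. YBX3 mRNA measured 98.4, 99.1 and 96.6 FPKM in vector replicates 1, 2 and 3, and 67.9, 66.7 and 77.5 FPKM in shYB1 replicates 1, 2 and 3. The groups did not overlap, and shYB1 replicate 3 was the highest of its group. The means were 98.0 ± 1.28 and 70.7 ± 5.93 FPKM (SD, n = 3 each), a log2 fold change of -0.48 (SE 0.053, 95% interval -0.59 to -0.36, adjusted p = 0.000236, limma with Benjamini-Hochberg adjustment). Counted from the lowest log2 fold change of all 10439 tested genes, YBX3 had rank 111, YBX1 rank 10 and CARHSP1 rank 821. The exact permutation test again gave the smallest possible p, 0.1.

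CARHSP1 lies on the minus strand of chr16:8852942-8869012, with 5 exons. Its span is overlapped by 2 genes on the opposite strand, and whether their exons overlap was not examined. The strand setting of the counting is not given in the sources used here, so its reads and theirs may not be separable. CARHSP1 mRNA measured 22.3, 23.4 and 23.2 FPKM in vector replicates 1, 2 and 3, and 20.6, 19.4 and 20.8 FPKM in shYB1 replicates 1, 2 and 3. All shYB1 values were below all vector values, by a small margin. The means were 23.0 ± 0.621 and 20.3 ± 0.726 FPKM (SD, n = 3 each), a log2 fold change of -0.18 (SE 0.043, 95% interval -0.27 to -0.085, adjusted p = 0.0123, limma with Benjamini-Hochberg adjustment), and the exact permutation test gave p = 0.1. Without shYB1 replicate 2 the CARHSP1 change was -0.15 and was no longer called (adjusted p = 0.0511, limma with Benjamini-Hochberg adjustment).

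**Figure D1:**
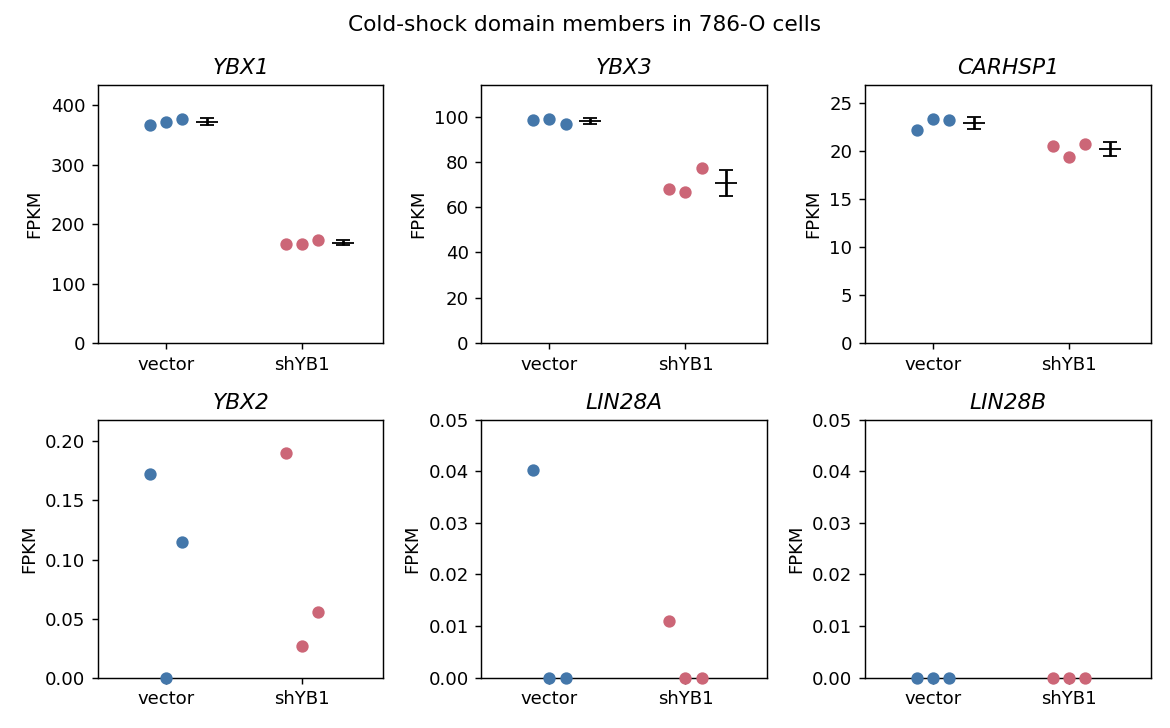
FPKM of each member in the 6 libraries, 1 panel per gene, vector libraries in blue and shYB1 libraries in red, with the mean and SD of each group (n = 3) as a black bar for the upper 3 genes. YBX1, YBX3 and CARHSP1 separate into a higher vector and a lower shYB1 group, while the lower panels, drawn on scales that end under 1 FPKM, hold values at or near 0 in both groups.

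The remaining members gave too little signal for a comparison. YBX2, at chr17:7288252-7294615 on the minus strand and overlapping SLC2A4 on the plus strand, measured 0.173, 0 and 0.115 FPKM in vector replicates 1, 2 and 3, and 0.190, 0.0265 and 0.0553 FPKM in shYB1 replicates 1, 2 and 3. The YBX2 values of the groups overlapped. LIN28A, at chr1:26410778-26429722 on the plus strand, was listed at 0.0403 FPKM in vector replicate 1, at 0.011 FPKM in shYB1 replicate 1 and at 0 in the other libraries. LIN28B, at chr6:104936616-105083332 on the plus strand, was listed at 0 in all 6 libraries. The table holds no read counts, so no limit of detection can be set for these genes. When every gene above 0 was fitted, YBX2 had a log2 fold change of -0.013 (SE 0.43, adjusted p = 0.996) and LIN28A one of -0.11 (SE 0.15, adjusted p = 0.69), both by limma with Benjamini-Hochberg adjustment.

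All 3 of the tested members were thus called lower, where 6.93% of all tested genes (723) were called lower and 18.7% (1956) were called higher. All 3 had shYB1 values entirely below their vector values, as did 12.5% of all tested genes. YBX1 is the target of the hairpin, so for it both outcomes were set by the design. Only YBX3 and CARHSP1 remain beside it, and the CARHSP1 call was lost without shYB1 replicate 2. The study's criteria were a fold change of at least 2 and an unadjusted p under 0.05. With the limma p, YBX1 was the only member that met them, among 0.182% of tested genes (19) that were lower. The study names no test for its sequencing, so its own selection may differ. The median log2 fold change of all tested genes was 0.06. The split of calls depended on scaling: 73.0% of all calls were higher on the deposited FPKM, and 47.9% after median-of-ratios scaling, which sets the libraries level at the median gene, with 1270 genes lower and 1169 higher, while the 3 members were called lower on both. In bulk RNA, fewer cells carrying a transcript and less of it per cell cannot be told apart.

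**Figure D2:**
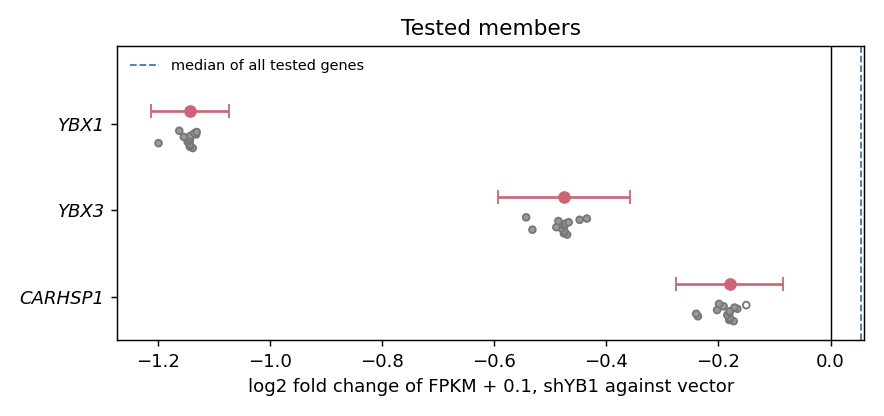
Log2 fold change of FPKM + 0.1, shYB1 against vector, of the 3 tested members (red points, with 95% intervals) and under 15 alternative settings (grey points, open where the adjusted p is 0.05 or more). The intervals of YBX1, YBX3 and CARHSP1 lie apart from each other and below 0, and the dashed line marks the median of all tested genes, 0.06.

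The Y-box mRNAs were then added together, since FPKM is a per-length scale. YBX1, YBX2 and YBX3 summed to 465.0, 471.9 and 474.6 FPKM in vector replicates 1, 2 and 3, and to 234.8, 232.5 and 250.8 FPKM in shYB1 replicates 1, 2 and 3. The sum was lower in each shYB1 library than in any vector library, 470.5 ± 4.94 against 239.4 ± 9.95 FPKM (SD, n = 3 each), or 49.1% lower, with an exact permutation p of 0.1. YBX1 made up 88.2% of the drop in FPKM and YBX3 made up 11.8%. The YBX1 share of the sum went from 79.1% ± 0.422 to 70.5% ± 1.21, and the YBX3 share from 20.8% ± 0.422 to 29.5% ± 1.22 (SD, n = 3 each, exact permutation p = 0.1 for both shares). YBX3 thus had a larger share of a smaller sum, without any rise in its own level. Since the hairpin targets YBX1, the shift in both shares was largely set by the design, and one share mirrors the other.

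**Figure D3:**
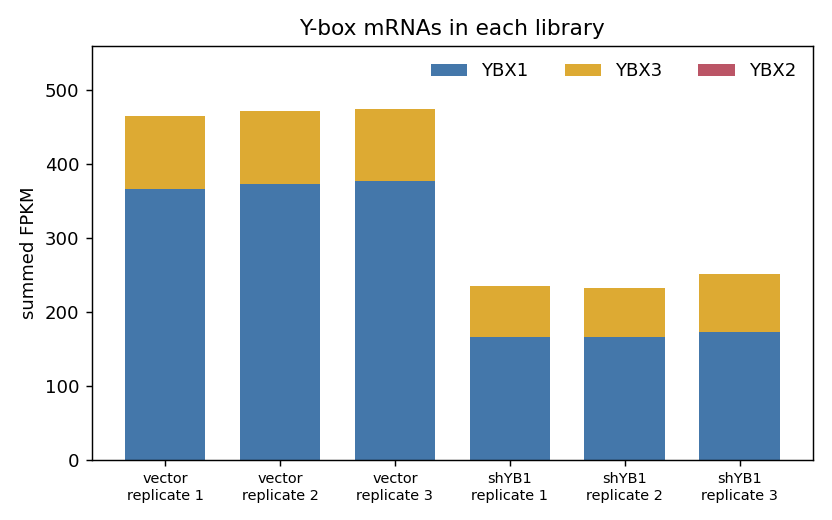
Summed FPKM of YBX1, YBX3 and YBX2 in each of the 6 libraries, as stacked bars that start at 0. The sums lie between 465.0 and 474.6 FPKM in vector libraries and between 232.5 and 250.8 FPKM in shYB1 libraries, and YBX2 is too low to be seen.

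The members changed unequally when compared within each library, a measure that library scaling cannot move. The log2 ratio of YBX3 to YBX1 was -1.92 ± 0.037 in vector and -1.26 ± 0.084 in shYB1 libraries (SD, n = 3 each), a difference of 0.67. The ratio of CARHSP1 to YBX1 differed by 0.96 and that of CARHSP1 to YBX3 by 0.30, both higher in shYB1. As YBX1 is the target of the hairpin, the rise of the ratios to YBX1 was largely set by the design. Only the ratio of CARHSP1 to YBX3 leaves YBX1 out. Groups did not overlap for any of the 3 pairs, and each exact permutation p was 0.1, also after Benjamini-Hochberg adjustment over the 3 pairs, the smallest that the design allows. The order of levels was YBX1, then YBX3, then CARHSP1 in every library, and the values of neighbouring genes did not overlap in either group.

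The members differ in sequence as well as in level. YBX1 and YBX3 proteins, translated from GENCODE 29 coding sequences, matched at 173 of 324 aligned positions (53.4%), and at 64 of 65 positions across the cold-shock domain window. YBX1 and YBX2 matched at 59 of 65 positions of this window, and YBX1 and LIN28B at 27 of 58 aligned positions. YBX1 and CARHSP1 matched at 11 of 27 aligned positions, and most of the window did not align between them. RNP1 and RNP2 were each found in all 6 proteins, with starts 13 residues apart in the Y-box proteins and CARHSP1 and 20 apart in LIN28A and LIN28B. YBX1 and YBX3 coding bases are shown around their longest shared run because both mRNAs fell in cells with a hairpin against YBX1. This stretch starts after RNP1 and was picked by likeness, so its identity is not that of the whole domain. Of 140 aligned coding bases, positions 241 to 380 in YBX1 and 337 to 476 in YBX3, 122 were identical (87.1%), printed in capitals, and 18 differed, printed in lower case.
YBX1: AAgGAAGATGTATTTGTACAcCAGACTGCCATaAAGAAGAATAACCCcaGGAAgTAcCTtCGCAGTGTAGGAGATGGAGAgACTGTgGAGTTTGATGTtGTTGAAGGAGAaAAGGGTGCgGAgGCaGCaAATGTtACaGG
YBX3: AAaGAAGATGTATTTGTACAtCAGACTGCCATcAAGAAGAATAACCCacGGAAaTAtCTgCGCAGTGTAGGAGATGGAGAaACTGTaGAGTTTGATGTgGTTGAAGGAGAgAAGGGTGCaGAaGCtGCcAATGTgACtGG
The longest run shared by the YBX1 and YBX3 mRNAs was 20 bases, so they had no stretch of 21 bases in common, whereas YBX1 and YBX2 shared 12 such stretches. The hairpin sequence is not given in the sources used here, and its part in the YBX3 difference was not tested. No stretch of 50 bases was shared between any member and another.

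Because YB1 is known to bind the Y-box, the 250 bases before the listed starts of 5 members, all but LIN28A, were searched for ATTGG on either strand, which also finds CCAAT (RefSeq, GRCh38.p14). The motif was present in 32.0% of 35116 promoters, and 2.81% held at least 3 matches. YBX1 had 3 matches, 140, 108 and 92 bases before its start. YBX2 had 2 matches, YBX3 had 1 at 158 bases before its start, and the 5 starts listed for CARHSP1 had 0. LIN28B had 1 match before 1 of its 2 starts and 0 before the other. The YBX1 and YBX3 promoters are shown because these genes had the larger falls, with ATTGG or CCAAT in capitals, the first at chr1:42682168-42682417 on the plus strand and the other at chr12:10723324-10723573 on the minus strand.
YBX1: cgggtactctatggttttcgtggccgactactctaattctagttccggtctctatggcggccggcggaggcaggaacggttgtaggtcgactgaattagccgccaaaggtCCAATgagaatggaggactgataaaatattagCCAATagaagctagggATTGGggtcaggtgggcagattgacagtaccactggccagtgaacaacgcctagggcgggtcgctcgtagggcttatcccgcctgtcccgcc
YBX3: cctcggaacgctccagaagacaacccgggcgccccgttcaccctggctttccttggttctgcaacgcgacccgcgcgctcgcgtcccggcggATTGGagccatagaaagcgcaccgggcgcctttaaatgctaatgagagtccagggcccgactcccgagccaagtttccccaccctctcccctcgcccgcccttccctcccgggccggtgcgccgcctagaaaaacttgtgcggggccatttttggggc
A match is a run of letters and was not tested for binding.

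Beyond the members, values are given for 4 other genes whose proteins carry a cold-shock domain. The exoribonucleases DIS3, DIS3L and DIS3L2 had log2 fold changes of -0.014, 0.19 and 0.0056 and were not called by limma with Benjamini-Hochberg adjustment (adjusted p = 0.899, 0.140 and 0.972). CSDC2, the closest relative of CARHSP1, was listed at 0 in all vector libraries and at no more than 0.0940 FPKM in shYB1 libraries.

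Proteins that share mRNA particles with YB1 formed a list of 27 genes, of which 26 were tested, 1 was called lower and 11 were called higher (6.93% and 18.7% of all tested genes), with a median log2 fold change of 0.09. After median-of-ratios scaling 5 were lower and 7 higher, where 1270 of all tested genes were lower and 1169 higher. On the deposited FPKM, 7 were higher without vector replicate 1, shYB1 replicate 2 or shYB1 replicate 3. SYNCRIP, an mRNA-binding partner of YB1, measured 18.1, 18.5 and 17.8 FPKM in vector and 22.1, 22.3 and 20.9 FPKM in shYB1 replicates 1, 2 and 3, and rose by 0.26 (SE 0.042, adjusted p = 0.00172, limma with Benjamini-Hochberg adjustment). NSUN2, which writes the 5-methylcytosine that YB1 can read, rose by 0.26 and ALYREF, an mRNA export adaptor, by 0.23. The cap-binding protein EIF4E rose by 0.33 and FXR2 by 0.24. The EIF4E call was lost without vector replicate 1 (limma adjusted p = 0.0698) or shYB1 replicate 2 (0.0715) or 3 (0.0585). The FXR2 call was lost without shYB1 replicate 2 (adjusted p = 0.0579) and after median-of-ratios scaling (0.0574), by limma with Benjamini-Hochberg adjustment. HNRNPD, an AU-rich element binding protein, rose by 0.17, and PABPC1, the poly(A)-binding protein, was the only gene of the list called lower on the deposited FPKM, at -0.11. The RNA helicase DDX6 had a lower log2 fold change, -0.13, and was not called (adjusted p = 0.0618, limma with Benjamini-Hochberg adjustment), but was called after median-of-ratios scaling (0.0125). PABPC1 was not called without vector replicate 2 (adjusted p = 0.0617) or shYB1 replicate 1 (0.0724), 2 (0.0656) or 3 (0.0679), by limma with Benjamini-Hochberg adjustment.

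Genes described as bound or controlled by YB1 formed a list of 28, taken in part from the study itself, so it is not independent evidence of direction. Of these, 27 were tested, 6 were called lower and 7 higher (6.93% and 18.7% of all tested genes), with a median log2 fold change of 0.09. After median-of-ratios scaling 8 were lower and 4 higher, where 1270 of all tested genes were lower and 1169 higher. Without shYB1 replicate 1 or 2 the lower calls numbered 3, and without shYB1 replicate 2 the higher calls numbered 4. HIF1A, the hypoxia-inducible factor subunit whose mRNA YB1 is known to bind, measured 65.0, 67.9 and 63.2 FPKM in vector and 46.3, 47.8 and 47.7 FPKM in shYB1 replicates 1, 2 and 3, and fell by 0.47 (SE 0.036, adjusted p = 2.20e-05, limma with Benjamini-Hochberg adjustment). The matrix metalloproteinases MMP2 and MMP14 fell by 0.24 and 0.22. In the opposite direction, ITGA6, an integrin subunit, rose by 0.47 and PCNA, the replication clamp, by 0.24. The death receptor FAS fell by 0.22, at 2.78 ± 0.0595 FPKM in vector and 2.38 ± 0.0543 FPKM in shYB1 libraries (SD, n = 3 each), but its call was lost whichever library was left out (adjusted p from 0.0652 to 0.114, limma with Benjamini-Hochberg adjustment). TWIST1 was listed at 0 in all 6 libraries.

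Genes that act with YBX3 and ZO-1 formed a list of 14, of which 12 were tested. Of these, 0 were called lower and 8 higher (6.93% and 18.7% of all tested genes). Their median log2 fold change was 0.18 against 0.06 for all tested genes. The lists were chosen with earlier results of these data known, so these values are not independent evidence of direction. PCNA, CCND1, ERBB2 and CSF2 also belong to the list of genes described as bound or controlled by YB1. After median-of-ratios scaling 0 genes of the ZO-1 and YBX3 list were lower and 6 higher, where 1270 of all tested genes were lower and 1169 higher. TJP1, which encodes ZO-1, measured 5.80, 6.10 and 5.94 FPKM in vector and 7.85, 7.88 and 7.44 FPKM in shYB1 replicates 1, 2 and 3, and rose by 0.37 (SE 0.053, adjusted p = 0.000874, limma with Benjamini-Hochberg adjustment). ARHGEF2, the junction-associated exchange factor GEF-H1, rose by 0.41 from 6.48 ± 0.448 to 8.64 ± 0.0657 FPKM (SD, n = 3 each). PCNA and CCND1, given as genes that ZONAB acts on, rose by 0.24 and 0.18, its binding partner CDK4 rose by 0.23 and the amino acid transporter SLC7A5 rose by 0.26. The junction genes TJP3 and CGN were under 1 FPKM and were not tested.

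Genes of the LIN28 and let-7 axis formed a list of 24, of which 18 were tested, 0 were called lower and 7 higher (6.93% and 18.7% of all tested genes), with a median log2 fold change of 0.10. After median-of-ratios scaling 0 were lower and 5 higher, where 1270 of all tested genes were lower and 1169 higher. LIN28A and LIN28B themselves were among the 6 genes under 1 FPKM. Levels of the let-7 microRNA were not examined, and its part in the rises below was not tested. HMGA2, a chromatin protein and a known let-7 target, measured 4.72, 4.77 and 4.30 FPKM in vector and 6.92, 6.70 and 6.06 FPKM in shYB1 replicates 1, 2 and 3, and rose by 0.50 (SE 0.069, adjusted p = 0.000702, limma with Benjamini-Hochberg adjustment). HMGA1 rose by 0.48 and ARID3B by 0.44, while DGCR8, the partner of Drosha, rose by 0.37. XPO5, which exports microRNA precursors, rose by 0.18. Its call was lost without vector replicate 2 (limma adjusted p = 0.0564) or shYB1 replicate 1 (0.0577) or 2 (0.0535). The XPO5 call was also lost after median-of-ratios scaling (adjusted p = 0.083, limma with Benjamini-Hochberg adjustment).

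The partners and substrate of CARHSP1 formed a list of 6 genes, all tested, of which 1 was called lower and 0 higher (6.93% and 18.7% of all tested genes), with a median log2 fold change of 0.06. TNF, whose mRNA CARHSP1 is known to stabilise, measured 3.32, 5.55 and 4.68 FPKM in vector replicates 1, 2 and 3 and 2.59, 2.69 and 2.93 FPKM in shYB1 replicates 1, 2 and 3. The groups did not overlap, although the vector values were widely spread, and TNF fell by 0.67 (SE 0.16, adjusted p = 0.0149, limma with Benjamini-Hochberg adjustment). The TNF call was lost without vector replicate 3 (adjusted p = 0.0503) or shYB1 replicate 1 (0.0586) or 2 (0.0508), by limma with Benjamini-Hochberg adjustment. The calcineurin subunits PPP3CA, PPP3CB and PPP3R1 had log2 fold changes of -0.017, 0.10 and 0.12, the kinase DYRK2 0.02 and the pseudophosphatase STYX 0.15, and none of these was called. Over all 6 lists without the members, 93 genes gave 85 tested, 9 lower and 29 higher (6.93% and 18.7% of all tested genes). Of these calls 76.3% were higher, near the 73% of calls over all tested genes. After median-of-ratios scaling 15 were lower and 20 higher, or 57.1% of calls higher against 47.9% over all tested genes. Genes in more than 1 list numbered 9, members not counted.

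**Figure D4:**
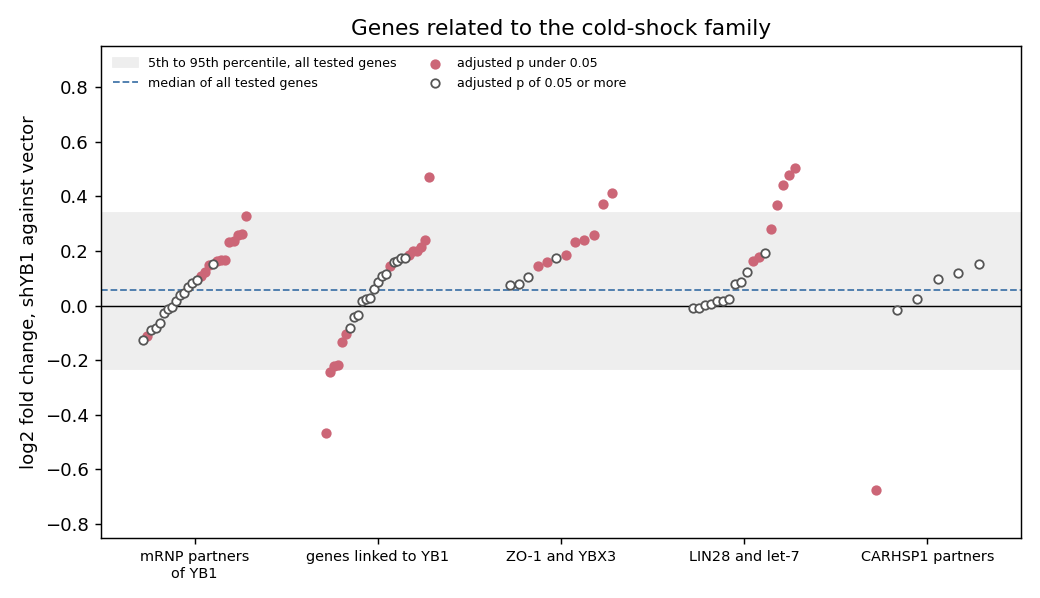
Log2 fold change, shYB1 against vector, of each tested gene of 5 of the lists (filled red points at an adjusted p under 0.05, open points otherwise). The grey band holds the 5th to 95th percentile of all tested genes, -0.23 to 0.34, and the dashed line their median, 0.06. The tested genes of the ZO-1 and YBX3 list lie above 0, and the lowest point, TNF, belongs to the CARHSP1 list.

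The genes whose log2 levels were most like those of YBX1 over the 6 libraries were ICAM1 (Pearson r = 0.999), FOS (0.999), C3 (0.999), GBA2 (0.999) and ALDH1A1 (0.998). For YBX3 they included CXCL1 (0.995), GSN (0.993), SERPINB9 (0.993) and KLF8 (0.991). The 6 points fall into the 2 groups, so any gene with a steady group difference has a high r, and no p is given. C3, a complement component, went from 47.5 to 21.5 FPKM, close in size to the change of YBX1, and ICAM1, an adhesion molecule, from 75.6 to 44.7 FPKM. CXCL1, a chemokine, went from 58.5 to 40.1 FPKM beside YBX3. Between the members, r was 0.968 for YBX1 with YBX3, 0.934 for YBX1 with CARHSP1 and 0.946 for YBX3 with CARHSP1.

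Total FPKM lay between 282736 and 295887 in the 6 libraries, and relative depth, from the spacing of the lowest values, between 0.979 and 1.10 times that of shYB1 replicate 1. Of 9 markers listed for renal carcinoma cells, 8 averaged 1 FPKM or more. PAX8 was at 77.1 FPKM in vector and 77.5 FPKM in shYB1 libraries, while LRP2 was at 0. No other line was compared, so these markers do not single out the labelled line. CDH6, a tubule cadherin, fell by 0.54 and PAX2 rose by 0.15. The PAX2 call was lost without vector replicate 1, 2 or 3 or shYB1 replicate 1 or 3 (adjusted p from 0.0535 to 0.129, limma with Benjamini-Hochberg adjustment). It was also lost after median-of-ratios scaling (adjusted p = 0.166, limma with Benjamini-Hochberg adjustment). Markers of other cell types were under 1 FPKM for 8 of 9, summed to 2.68 to 3.54 FPKM per library, and CD3E, HBB and CDH5 were at 0 in all libraries.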

How the data were processed

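For the 3 vector and 3 shYB1 libraries, the authors deposited FPKM for 20030 genes, with no counts, so absolute depth is unknown. Processing notes of the submitters list Trimmomatic, HISAT2, Cufflinks, HTSeq, DESeq and GRCh38, without versions or roles. All 6 value columns were used and 0 were left out. From the FPKM, log2(FPKM + 0.1) of 10439 genes averaging 1 FPKM or more was fitted with limma 3.58.1 in R 4.3.3 (lmFit, eBayes with trend and robust prior, two-sided, Benjamini-Hochberg over all tested genes), which was tested on simulated data. Single values were compared with exact permutation tests. The members and the 6 lists were chosen with earlier results of these data known. Named were all members, every gene of lists of up to 6, up to 6 called genes with the largest fold changes of longer lists, the 5 genes most like YBX1 and YBX3, and cell type markers. PABPC1, DDX6, TWIST1, TJP3 and CGN were named after their values were seen. Some genes that this rule names, and the counts of the list of other cold-shock domain genes, are not reported here. Proteins were aligned locally (Biopython 1.88, BLOSUM62) from GENCODE 29 coding sequences, since no RefSeq proteins were used here, in place of the planned global alignment of RefSeq proteins. Promoters were taken from RefSeq. The 15 alternatives varied pseudocount, filter, scaling, variance prior, replicate block and libraries. The remaining steps ran in Python 3.11.15 (SciPy 1.17.1, pandas 2.3.3, matplotlib 3.10.9, NumPy 2.4.6).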

Additional observations from a re-analysis of the deposited data

How the results depend on the processing

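Under 15 alternatives, the log2 fold change of YBX1 lay between -1.20 and -1.13, that of YBX3 between -0.54 and -0.43 and that of CARHSP1 between -0.24 and -0.15, and each direction was kept. Leaving out each replicate in turn gave -1.16 to -1.13 for YBX1, -0.54 to -0.43 for YBX3 and -0.20 to -0.15 for CARHSP1 (adjusted p 0.0191 to 0.0511, limma with Benjamini-Hochberg adjustment), 2 to 3 members called lower and, for the 6 lists together, 4 to 7 lower and 20 to 27 higher. The lowest list count, 4, came without shYB1 replicate 1 or 2, and the lost member was CARHSP1 without shYB1 replicate 2. Fits without a replicate have fewer libraries. Over all tested genes, these fits called 517 to 609 lower and 1324 to 1948 higher. Median-of-ratios scaling called 1270 lower and 1169 higher genes, quantile normalization 1184 and 1267, against 723 and 1956. Median-of-ratios scaling also called 15 list genes lower and gave -244.8 FPKM for the difference in the Y-box sum, against -231.2. Without counts, the depth limits what can be said of YBX2, LIN28A and LIN28B.

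The replicate numbers did not pair the libraries: same-number correlations of deviations were -0.169, -0.059 and -0.00824, and different-number ones -0.0507 to 0.113. With a replicate block, YBX1 was at -1.14, YBX3 at -0.48 and CARHSP1 at -0.18 (adjusted p = 8.97e-08, 0.000496 and 0.0153, limma with Benjamini-Hochberg adjustment), with 760 genes lower and 2074 higher, and 8 lower and 30 higher in the lists.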
